A study of Mus musculus with 8 samples.

Results

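Mitochondrial ribosomal protein genes are the nuclear genes whose mouse symbols begin with Mrpl or Mrps and go on with a number. They were taken as every row of the count table whose gene identifier carried such a symbol, whatever its level. The rule found 78 of 55414 identifiers, 49 with large-subunit names and 29 with small-subunit names. RNA-seq read counts came from iBMDM cells, a line of immortalized wild-type mouse macrophages derived from bone marrow, in 4 groups of 2 libraries. The DSF+LPS group received 5 µM disulfiram (DSF) for 0.5 h and then 1 µg/ml lipopolysaccharide (LPS) for 4 h. The DSF group received the same disulfiram step and then water, the vehicle of LPS. The LPS group received DMSO, the solvent of disulfiram, and then LPS, and the control group received DMSO and then water. Disulfiram is a drug against alcohol dependence, and LPS is a bacterial cell wall component that macrophages sense through the receptor TLR4. The study asked whether the drug inhibits that signalling. The 4 groups share 1 immortalized line, and no label says that the samples within a group came from separate cultures. The p-values therefore reflect the spread between the libraries alone, and that spread could be technical.

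The mitochondrial ribosome translates the few mRNAs of mitochondrial DNA, all of which encode subunits of the respiratory chain and ATP synthase. Its ribosomal RNAs come from mitochondrial DNA, but its proteins are encoded in the nucleus, made in the cytosol and imported. Some of these proteins descend from those of the bacterial ribosome, and others were gained in mitochondria. Promoters of such genes are known for sites of the factors NRF1 (nuclear respiratory factor 1), GABP (an ETS factor, also called NRF2) and YY1.

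The 4 promoters below are shown because 3 of them belong to genes that fell steeply with the drug and 1 to the gene with the steepest rise with LPS, and each holds a match to one of those motifs. Each window runs from 250 bases before to 50 bases after the RefSeq gene start, on the mouse build GRCm38.p6, and capitals mark the matches. Mrps22 lies at chr9:98601630-98601929 on the minus strand, Mrps27 at chr13:99344536-99344835 on the plus strand, Mrpl44 at chr1:79775768-79776067 on the plus strand and Mrpl52 at chr14:54426659-54426958 on the plus strand.
Mrps22: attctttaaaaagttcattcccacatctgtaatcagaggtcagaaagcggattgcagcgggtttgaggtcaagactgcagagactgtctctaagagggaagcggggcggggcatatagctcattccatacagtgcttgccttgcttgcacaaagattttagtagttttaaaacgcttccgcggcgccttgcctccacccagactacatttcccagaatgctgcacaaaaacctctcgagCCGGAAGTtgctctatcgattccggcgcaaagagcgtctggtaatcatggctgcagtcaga
Mrps27: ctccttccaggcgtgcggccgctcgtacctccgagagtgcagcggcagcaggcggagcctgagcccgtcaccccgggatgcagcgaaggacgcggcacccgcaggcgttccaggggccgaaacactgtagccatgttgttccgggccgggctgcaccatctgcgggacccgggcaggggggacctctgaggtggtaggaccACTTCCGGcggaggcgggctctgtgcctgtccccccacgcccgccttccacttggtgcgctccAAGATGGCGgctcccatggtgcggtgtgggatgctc
Mrpl44: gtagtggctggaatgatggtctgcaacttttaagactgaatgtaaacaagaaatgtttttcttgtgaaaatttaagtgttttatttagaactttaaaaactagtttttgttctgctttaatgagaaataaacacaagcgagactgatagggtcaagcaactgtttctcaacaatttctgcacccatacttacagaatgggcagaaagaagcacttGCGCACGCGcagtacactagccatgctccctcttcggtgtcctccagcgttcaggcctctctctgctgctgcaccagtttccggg
Mrpl52: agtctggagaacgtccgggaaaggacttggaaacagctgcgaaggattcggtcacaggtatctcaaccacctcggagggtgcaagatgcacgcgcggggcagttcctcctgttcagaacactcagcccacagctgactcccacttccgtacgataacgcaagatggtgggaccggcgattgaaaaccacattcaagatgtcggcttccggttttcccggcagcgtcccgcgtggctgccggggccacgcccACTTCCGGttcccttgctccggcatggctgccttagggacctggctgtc
In Mrps22 the ETS letters CCGGAAGT stood from base -11 to base -4 relative to the start. Mrps27 held the reverse complement of the ETS letters from -49 to -42 and the YY1 letters AAGATGGCG from 15 to 23. The NRF1 letters GCGCANGCG stood from -35 to -27 in Mrpl44, and the reverse complement of the ETS letters stood from 2 to 9 in Mrpl52.

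RefSeq held such a window for 69 members. Exact letters, with N for any base, were searched on both strands, and the shares below are descriptions. NRF1 letters stood in 16 member windows, or 23.2%, against 14.7% of the 10474 tested genes that have a window. ETS letters stood in 12, or 17.4%, against 9.17%, and YY1 letters in 8, or 11.6%, against 3.48%. The heat shock factor pair GAANNTTC stood in 7.25% of member windows and 6.89% of those of tested genes. The NF-kB letters GGGACTTTC were in 0 member windows and 0.439% of those of tested genes. The letters TGACNNNGC of the antioxidant response element stood in 20.3% against 17.0%, the E-box CACGTG in 7.25% against 11.5%, and TATAAA in 7.25% against 9.27%. NRF1, ETS and YY1 letters occurred in members of every response. Of 37 windowed members that fell with DSF alone, 9 held NRF1 letters, 7 ETS letters and 4 YY1 letters, against 6, 4 and 3 of the 25 that did not pass and 1, 1 and 1 of the 6 that rose.

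Library totals ran from 17822041 to 21694922 counts, and 16304 genes passed a filter on low counts and were tested. CPM below is the count of a gene per 1000000 counts of its library, with library totals scaled by TMM, the trimmed mean of M-values. Tnf, a cytokine gene that LPS induces, had 202 and 259 CPM in DSF+LPS, 46.3 and 54.6 CPM in DSF, 833 and 849.9 CPM in LPS and 37.0 and 38.1 CPM in control. Hmox1, a heme-degrading enzyme induced by oxidative stress, had 6089.6 and 7719.8 CPM in DSF+LPS and 6762 and 6183 CPM in DSF, against 212 and 213 CPM in LPS and 188 and 181 CPM in control. The 10 macrophage markers, among them Adgre1 and Csf1r, all had counts, and their plain CPM summed to between 2230.0 and 2923 in the 8 libraries. Lists of neutrophil, dendritic cell, lymphocyte, fibroblast, and epithelial and endothelial markers summed to at most 13.9 CPM, and S100a9, Cd3e and Nkg7 had no count in any library. In bulk RNA, fewer cells of a type and less RNA per cell cannot be told apart.

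Of the 78 members, 77 passed the filter, so nearly all were measurable in these cells. Mrpl53, a protein at the base of the stalk in human structures, had 1 count in all 8 libraries and was not tested, and in the annotation it overlaps Gm42688 on the same strand. Mrps36 had 17 to 32 counts, and Mrpl23 had 74 to 97 counts while its processed pseudogene Mrpl23-ps1 had 908 to 1260. Reads of such copies may have been split between the gene and its pseudogene, so the values of Mrps36, Mrpl23 and Mrpl48 are uncertain. Members that overlap a tested gene on the other strand are uncertain too, since it is not given whether the counting used strand. Among them are Mrpl13, Mrpl18, Mrpl36, Mrpl43, Mrpl44, Mrpl46, Mrpl47, Mrpl49, Mrps7, Mrps11, Mrps25 and Mrps34. CPM is not divided by gene length, so levels are compared below within a gene and not between genes.

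Together the members took a smaller share of the library in both groups given disulfiram. The share was 0.350% and 0.341% in the DSF+LPS libraries, 0.357% and 0.357% in DSF, 0.410% and 0.408% in LPS and 0.454% and 0.438% in control. All 4 libraries with the drug lay below all 4 without it, and the LPS libraries lay below those of control. The mean shares were 0.345% ± 0.00626 in DSF+LPS, 0.357% ± 0.000343 in DSF, 0.409% ± 0.00126 in LPS and 0.446% ± 0.0113 in control (SD, n = 2). Genes of the cytosolic ribosome went the other way, with mean shares of 2.15% in DSF+LPS and 1.92% in DSF, against 1.49% in LPS and 1.504% in control. The 13 mRNAs of mitochondrial DNA took 1.28% in DSF+LPS, against 1.79% in DSF, 1.68% in LPS and 1.88% in control. A share falls when other genes take more of the library, and no test was made of it.

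**Figure D1:**
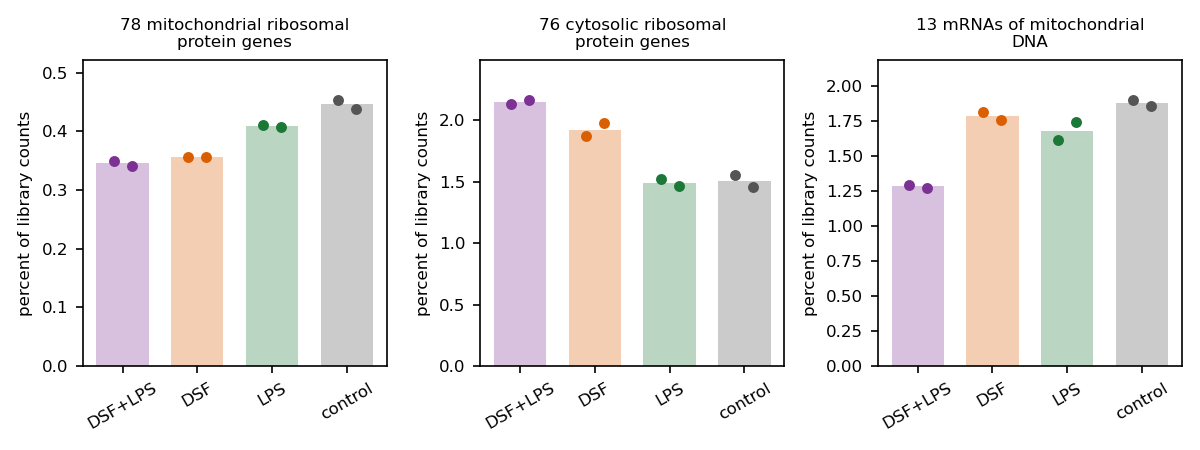
Percent of all counts in each library that fell on 3 gene groups. Points are libraries and bars are means of 2 libraries in the DSF+LPS, DSF, LPS and control groups. For the mitochondrial ribosomal protein genes, the libraries with disulfiram sit between 0.341% and 0.357% and those without it between 0.408% and 0.454%.

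With disulfiram and no LPS, more than 4 times as many of these genes fell as rose, most by less than 1.5-fold. Against control, 42 of the 77 members fell and 9 rose by edgeR's quasi-likelihood test at a Benjamini-Hochberg adjusted p under 0.05. Over all tested genes, 27.1% fell and 31.0% rose in the same comparison, 58.1% in all. The median log2 fold change of the members was -0.25, against 0.05 for all tested genes. Of the 42, 15 fell by at least 1.5-fold and 1, Mrpl41, by at least 2-fold. Of all 16304 tested genes, 2347 fell by at least 1.5-fold and 845 by at least 2-fold. Falls of at least 1.5-fold were thus a somewhat larger share among the 77 members, and falls of at least 2-fold a smaller one. Lower calls outnumbered higher ones with 2 other scalings of library size as well. Without control replicate 2, only 3 members rose, and Mrpl57, Mrpl33, Mrpl24, Mrps16 and Mrps18a no longer passed.

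The steepest fall was in Mrpl41 (ENSMUSG00000036850), a large-subunit protein gained in mitochondria. It had 10.5 and 10.7 CPM in DSF, against 25.7 and 24.1 CPM in control. The replicates of each group lay close together and far from the other group, and the log2 fold change was -1.23 (SE 0.14, adjusted p = 4.71e-06). Mrpl44 (ENSMUSG00000026248), which carries a fold related to the RNA-cleaving enzyme RNase III, had 26.5 and 21.9 CPM in DSF, against 47.6 and 46.4 CPM in control. Its log2 fold change was -0.95 (SE 0.11, adjusted p = 3.25e-06). Mrps22 (ENSMUSG00000032459), a mitochondria-specific small-subunit protein mutated in inherited mitochondrial disease in humans, had 25.7 and 25.9 CPM in DSF and 48.5 and 49.2 CPM in control. In each of these genes both DSF libraries lay below both control libraries.

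Further falls were in genes for different parts of the ribosome. Mrpl51, a mitochondria-specific large-subunit protein, changed by -0.85 on the log2 scale (SE 0.09, adjusted p = 1.07e-06) and Mrps27, a small-subunit protein with pentatricopeptide repeats, by -0.83 (SE 0.12). Mrpl50, another mitochondria-specific large-subunit protein, changed by -0.79 (SE 0.13). Mrpl18, whose bacterial counterpart binds 5S rRNA, had 48.3 and 51.1 CPM in DSF, against 90.1 and 80.3 CPM in control, a log2 fold change of -0.78 (SE 0.09, adjusted p = 4.75e-06). A form of MRPL18 made in the cytosol under heat shock is known from human cells. Mrpl22, which lines the exit tunnel through which the new chain leaves, changed by -0.71 (SE 0.14). Hspa1b, a heat shock gene, had 8593 and 11043 CPM in DSF and 14.1 and 19.3 CPM in control in the same libraries, and its part in these results was not tested.

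Among the 9 that rose, Mrps6 (ENSMUSG00000039680), the counterpart of bacterial S6, stood apart in size. It had 59.4 and 60.6 CPM in DSF, against 25.5 and 20.0 CPM in control, a 2.65-fold difference (log2 fold change 1.40, SE 0.15, adjusted p = 2.43e-06). In the annotation Mrps6 overlaps 2 genes on its own strand that rose too. Slc5a3, a myo-inositol transporter, had a log2 fold change of 1.54 and the intronic transcript Gm16310 one of 3.71, so how many of the Mrps6 reads belong to Mrps6 is uncertain. Mrpl38 (ENSMUSG00000020775), a protein of the central protuberance of the large subunit, had 137 and 135 CPM in DSF and 92.1 and 94.1 CPM in control (log2 fold change 0.55, SE 0.07, adjusted p = 9.20e-06). Mrpl54, at the base of the stalk, had a log2 fold change of 0.50 (SE 0.11). Smaller rises of 0.27 to 0.36 were measured for Mrpl57, Mrpl33, Mrpl24, Mrps16, Mrps18a and Mrpl13. The size for Mrps16 depended on single libraries. It was 0.17 without DSF replicate 1 and 0.42 without DSF replicate 2. For Mrpl24 it was 0.24 without control replicate 2 and 0.43 without control replicate 1.

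**Figure D2:**
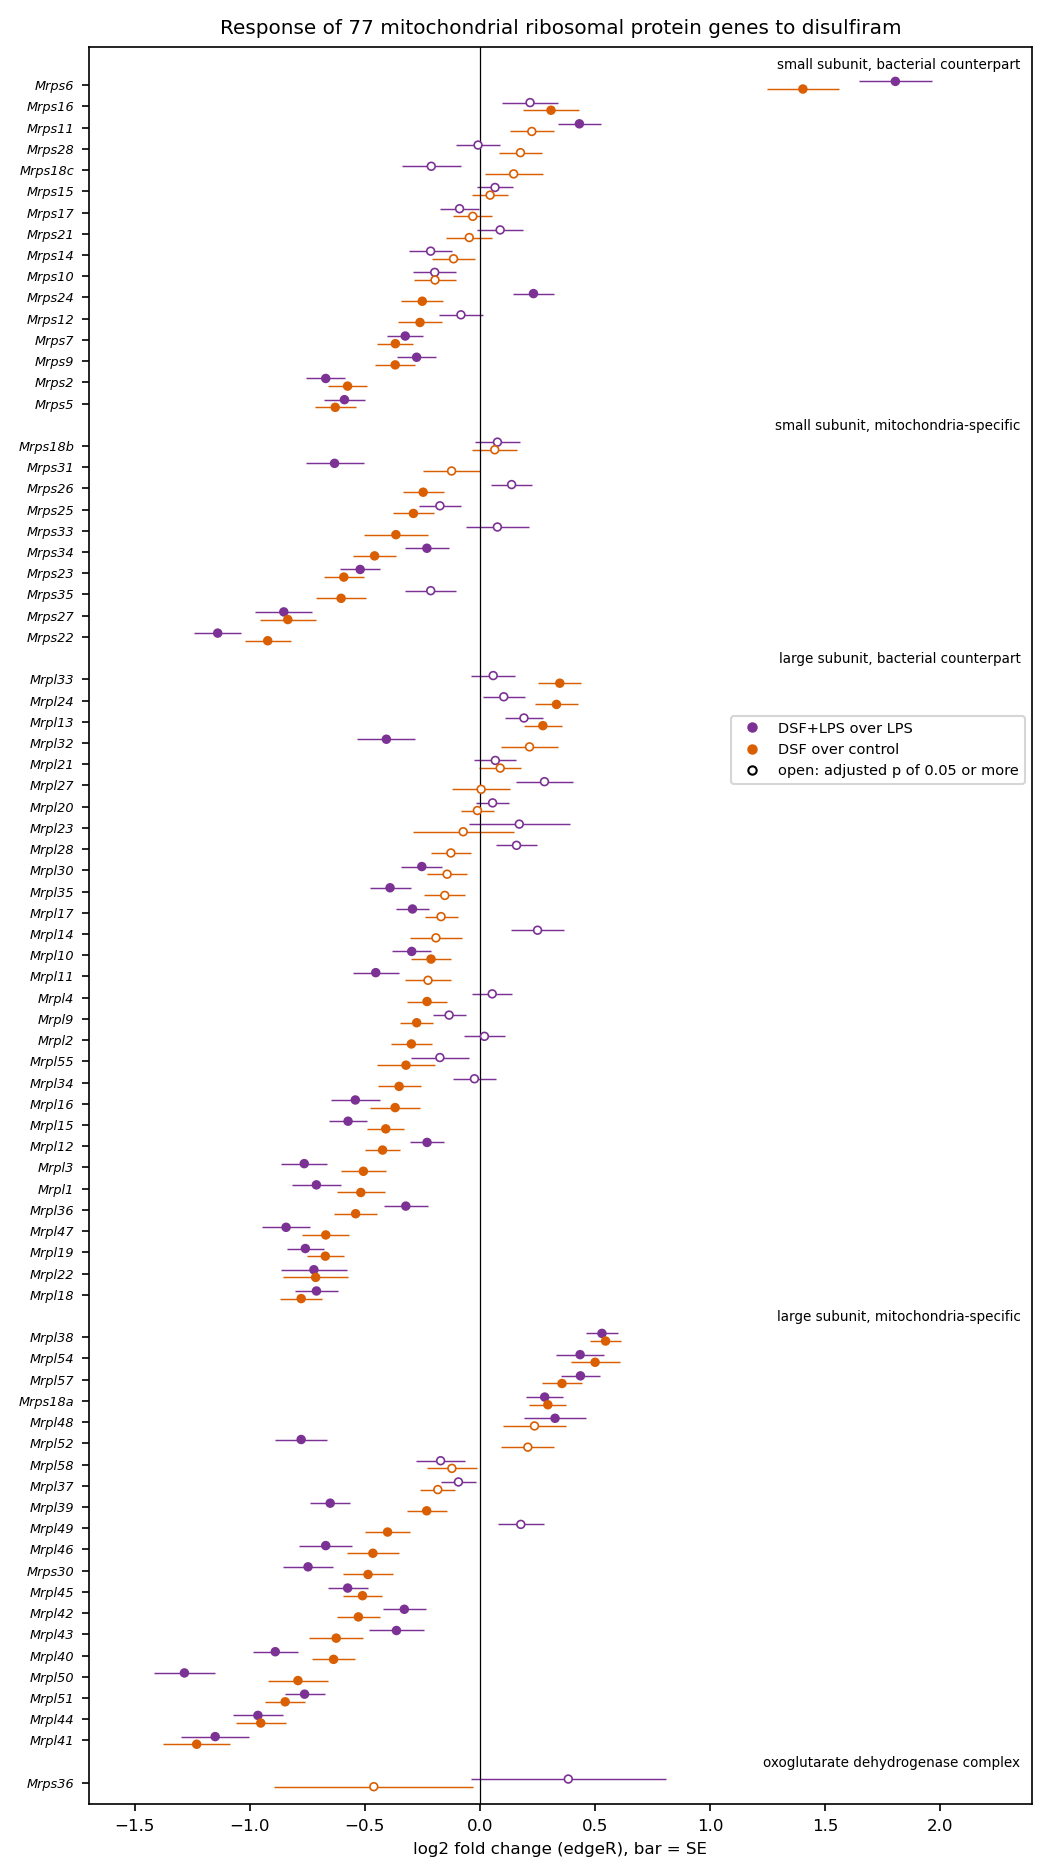
The log2 fold change of each of 77 members in DSF+LPS over LPS (purple) and in DSF over control (orange), with bars of 1 SE, ordered by subunit and origin; filled points have an adjusted p under 0.05. Points left of 0 outnumber those on the right in both comparisons, Mrpl41 and Mrpl50 reach furthest left, and Mrps6 lies furthest right at 1.81 and 1.40.

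Disulfiram before LPS gave much the same picture in libraries that share none with the comparison above. In DSF+LPS against LPS, 37 members fell and 8 rose, where 31.6% of all tested genes fell and 33.7% rose, 65.3% in all. The median log2 fold change was -0.21 for the members and 0.04 for all tested genes. Of the 37, 20 fell by at least 1.5-fold and 3, Mrpl50, Mrpl41 and Mrps22, by at least 2-fold. Of all 16304 tested genes, 3350 fell by at least 1.5-fold and 1609 by at least 2-fold. Again the first share was somewhat larger among the 77 members and the second smaller. Mrpl50 (ENSMUSG00000044018) had 19.6 and 25.8 CPM in DSF+LPS, against 56.6 and 53.8 CPM in LPS (log2 fold change -1.28, SE 0.13, adjusted p = 8.51e-07). Mrps22 had 25.6 and 21.9 CPM in DSF+LPS and 49.9 and 55.0 CPM in LPS (log2 fold change -1.14, SE 0.10, adjusted p = 1.80e-07). For both genes the groups did not overlap. Mrpl41 changed by -1.15 (SE 0.15), Mrpl44 by -0.96 (SE 0.11), Mrpl40 of the central protuberance by -0.89 (SE 0.10), Mrps27 by -0.85 (SE 0.12) and Mrpl47, beside the exit of the tunnel, by -0.84 (SE 0.10).

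Mrps6 again had the largest rise, with 81.3 and 55.3 CPM in DSF+LPS, against 20.4 and 18.7 CPM in LPS (log2 fold change 1.81, SE 0.16, adjusted p = 1.41e-07). Its DSF+LPS libraries differed more from each other than those of any other group, yet both lay above both LPS libraries. Mrpl38, Mrpl57 and Mrpl54 had log2 fold changes of 0.53, 0.44 and 0.44. Mrps11, a counterpart of a bacterial small-subunit protein, followed with 0.43 (SE 0.09, adjusted p = 0.00102). Mrpl48 had 0.33, Mrps18a 0.28 and Mrps24 0.23. The calls of Mrpl48 and Mrps24 were each lost without any one of 5 libraries.

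The 2 disulfiram comparisons called largely the same members. Over all tested genes, 58.1% were called with DSF against control and 65.3% with DSF+LPS against LPS. Their overlap and correlation were not computed, so whether those below are particular to the members is not known. Of the 42 that fell with DSF and the 37 that fell with DSF+LPS against LPS, 30 were shared, which is 71.4% of the first list and 81.1% of the second. In both, 5 rose, namely Mrps6, Mrpl38, Mrpl54, Mrpl57 and Mrps18a, or 55.6% and 62.5%. Mrps24, a counterpart of bacterial S3, was called in opposite directions, lower with DSF alone and higher with DSF+LPS against LPS. It overlaps Urgcp on the same strand, which had log2 fold changes of 0.36 with DSF against control and 0.69 with DSF+LPS against LPS, so how many of the Mrps24 reads belong to Mrps24 is uncertain. Neither comparison called 17 members. Across the 77 members the 2 log2 fold changes had a Pearson correlation of 0.815, and 61 members had a difference between them of less than 0.3 on the log2 scale. Genes are not independent replicates, and each comparison uses its own 4 libraries within 1 common scaling.

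**Figure D3:**
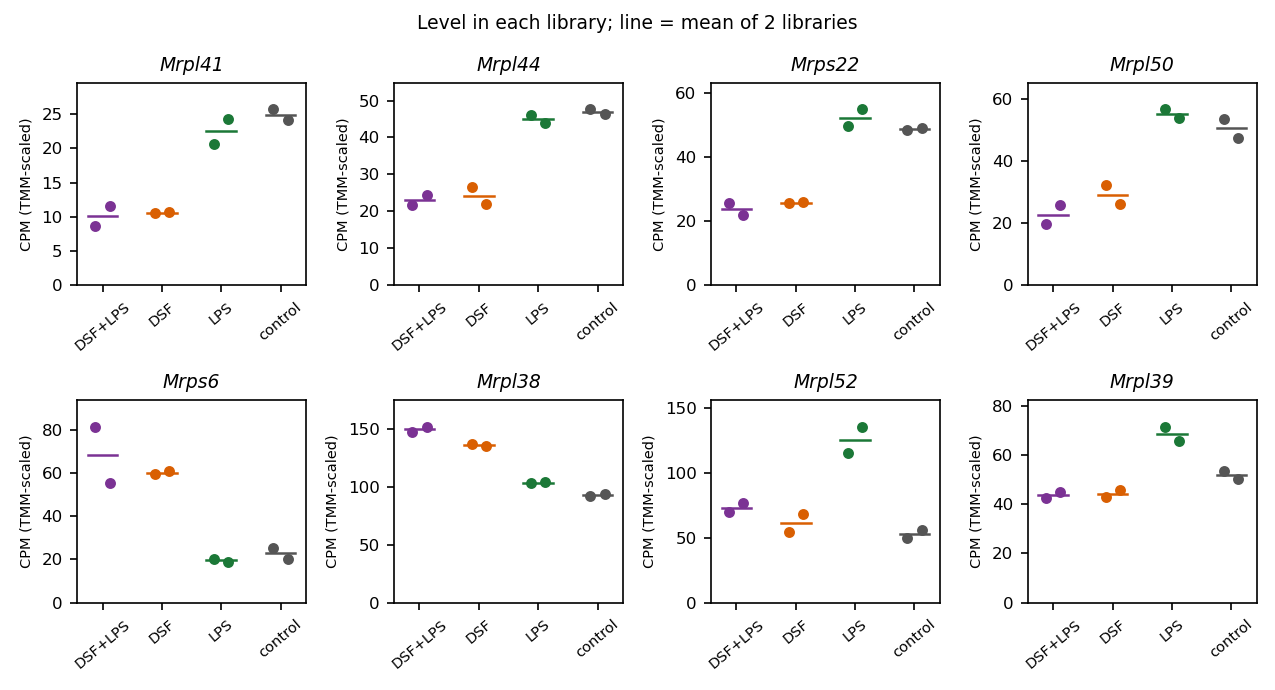
CPM in each library for 8 members, with a line at the mean of 2 libraries, in the DSF+LPS, DSF, LPS and control groups. Mrpl41, Mrpl44, Mrps22 and Mrpl50 are low in all 4 libraries with disulfiram, Mrps6 and Mrpl38 are high in them, and Mrpl52 is highest in the LPS libraries at 115 and 136 CPM.

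Falls were called for genes of both subunits and of both origins. With DSF against control, 8 of 10 mitochondria-specific small-subunit genes fell and 0 rose (median log2 fold change -0.41), and 12 of 20 mitochondria-specific large-subunit genes fell and 4 rose (median -0.43). Of those with a bacterial counterpart, 6 of 16 fell and 2 rose in the small subunit (median -0.08), and 16 of 30 fell and 3 rose in the large one (median -0.23). In DSF+LPS against LPS, 5 of the 10 mitochondria-specific small-subunit genes fell and 0 rose (median -0.22), and 12 of the 20 in the large subunit fell and 5 rose (median -0.47). Of the 16 small-subunit genes with a bacterial counterpart, 4 then fell and 3 rose (median -0.08), a share of falls of 25.0% against 31.6% of all tested genes. Of the 30 in the large subunit, 16 fell and 0 rose (median -0.24). The difference between these classes was not tested. No mitochondria-specific small-subunit gene rose in either comparison by edgeR, and 0 did so at an unadjusted p under 0.05 or by DESeq2. Mrps18a, Mrps18b and Mrps18c are 3 mammalian relatives of bacterial S18. In the counts above, Mrps18a and Mrps18b were nevertheless placed with the mitochondria-specific genes, and Mrps18c with those that have a bacterial counterpart. Mrps18b did not pass with DSF (log2 fold change 0.07, SE 0.10), nor did Mrps18c (0.15, SE 0.13). Mrps18a, which sits in the large subunit, rose by 0.30 (SE 0.08).

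Within the large subunit, the genes of neighbouring proteins did not all change in one direction. At the stalk, which recruits translation factors, Mrpl12 and Mrpl10 fell with DSF and Mrpl54 rose, and Mrpl11 had a log2 fold change of -0.23 that did not pass (adjusted p = 0.0640). Mrpl12, also known to bind the mitochondrial RNA polymerase in human cells, had 141 and 158 CPM in DSF, against 199.8 and 201 CPM in control (log2 fold change -0.42, SE 0.07, adjusted p = 0.000204). With DSF+LPS against LPS its log2 fold change was -0.23 (SE 0.07), and that call was lost without LPS replicate 1 and without DSF+LPS replicate 2. At the exit tunnel, 3 of 6 fell with DSF and 1, Mrpl24, rose. The 3 were Mrpl22, Mrpl47 and Mrpl45, the last of which contacts the inner membrane (log2 fold change -0.51, SE 0.09). In the central protuberance, Mrpl18, Mrpl40, Mrpl46 and Mrpl55 fell and Mrpl38 rose, out of 8. Mrpl58, a peptidyl-tRNA hydrolase built into this region, had 29.6 and 32.5 CPM in DSF and 36.5 and 31.1 CPM in control, and these ranges overlapped (log2 fold change -0.12, SE 0.11, adjusted p = 0.353).

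Some members are best known for something other than their subunit name. Mrps30 sits in the large subunit despite its name and fell with DSF (log2 fold change -0.49, SE 0.11) and with DSF+LPS against LPS (-0.75, SE 0.11). Mrps12, at the decoding centre, had 33.2 and 33.8 CPM in DSF and 41.9 and 38.5 CPM in control (log2 fold change -0.26, SE 0.10, adjusted p = 0.0325). That call was lost without control replicate 1, DSF replicate 1 or DSF replicate 2, and with DSF+LPS against LPS the log2 fold change was -0.08 (SE 0.10). Mrps36 is known as a subunit of the oxoglutarate dehydrogenase complex and not of the ribosome. At 0.884 to 1.75 CPM across the libraries with LPS and 0.770 to 1.39 CPM in the others, it passed in no comparison.

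LPS without the drug changed few members. Against control, 4 rose and 7 fell, where 15.2% of all tested genes rose and 13.8% fell, 29.0% in all. The median log2 fold change was 0.03 for the members and 0.02 for all tested genes. With library size alone as the scaling, 2 rose and 15 fell, where 23.1% of all tested genes fell. The share of rises among all called genes was then 30.0% instead of 52.5%. The number that fell was 1 without LPS replicate 2, 2 without control replicate 1, 3 without LPS replicate 1 and 4 without control replicate 2.

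Mrpl52 (ENSMUSG00000010406), a mitochondria-specific large-subunit protein, stood apart. It had 115 and 136 CPM in LPS, against 50.1 and 56.0 CPM in control, a 2.36-fold difference (log2 fold change 1.24, SE 0.11, adjusted p = 7.11e-07). The call held without each library in turn. Mmp14, a matrix metalloproteinase gene, lies downstream on the same strand and was looked up after the Mrpl52 values were seen. It had 13 and 19 counts in LPS and 0 and 5 in control, where Mrpl52 had 2348 and 2836 counts in LPS and 968 and 1285 in control.

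The other rises with LPS were in Mrpl39, a protein related to threonyl-tRNA synthetase (log2 fold change 0.40, SE 0.09, adjusted p = 0.00225), Mrpl17 (0.32), near the exit tunnel, and Mrps28 (0.28), in the small subunit. Falls were measured for Mrpl49 (-0.53, SE 0.10, adjusted p = 0.000649), Mrps35 (-0.41), Mrpl14 (-0.37), Mrpl34 (-0.35), Mrpl42 (-0.29), Mrpl18 (-0.26) and Mrps23 (-0.24). Mrpl49 had 38.2 and 34.8 CPM in LPS and 52.8 and 52.7 CPM in control. Of these 11 calls, those of Mrpl52, Mrpl39 and Mrpl49 held without each library in turn. Mrpl17 was lost without LPS replicate 1, Mrps35 without control replicate 1 or LPS replicate 2, and each of the others without 3 or more single libraries.

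LPS after disulfiram changed almost none of them. In DSF+LPS against DSF, 0 members rose and 1, Mrpl40, fell by edgeR, where 5.53% of all tested genes rose and 6.53% fell, 12.1% in all. At an unadjusted p under 0.05, 10 were higher and 6 lower, and DESeq2 called 1 higher and 0 lower. Mrpl40 had 18.8 and 19.4 CPM in DSF+LPS and 24.5 and 23.5 CPM in DSF (log2 fold change -0.33, SE 0.10, adjusted p = 0.0447), and the call was lost without any 1 of the 8 libraries. With library size alone, 7 members fell, where 13.4% of all tested genes fell. The share of rises among all called genes was then 17.5% instead of 45.8%. Across the 77 members the responses to LPS with and without the drug had a Pearson correlation of 0.04.

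The interaction, which is the log2 response to disulfiram with LPS minus that without it, was called for 6 members, where 19.7% of all tested genes were called, 7.58% above 0 and 12.2% below. Mrpl52 had the largest at -0.99 (SE 0.16, adjusted p = 0.000493), and it passed without each library in turn. It had 69.7 and 76.8 CPM in DSF+LPS, 54.3 and 68.5 CPM in DSF, 115 and 136 CPM in LPS and 50.1 and 56.0 CPM in control. Thus the LPS libraries were above all others, and those of DSF+LPS were above those of DSF and control. The response of Mrpl52 to LPS was 0.26 on the log2 scale in the presence of the drug (SE 0.11, adjusted p = 0.168). Mrpl32, a bacterial-type protein cut by the m-AAA protease on import, had an interaction of -0.62 (SE 0.18), and Mrpl39 one of -0.42 (SE 0.12).

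Positive interactions were called for Mrpl49 (0.58, SE 0.14, adjusted p = 0.00823), Mrps24 (0.48, SE 0.13) and Mrps26 (0.38, SE 0.13), a small-subunit protein. Mrpl49 had 44.4 and 38.0 CPM in DSF+LPS, 39.1 and 40.9 CPM in DSF and 38.2 and 34.8 CPM in LPS, all under the 52.8 and 52.7 CPM of control. The DSF+LPS libraries thus overlapped those of either agent alone and lay below those of control. Without LPS replicate 2 the interaction of Mrpl49 did not pass (adjusted p = 0.0595), and those of Mrpl32, Mrpl39, Mrps24 and Mrps26 each failed without any one of at least 4 libraries. By edgeR the number of positive interactions was 9 without DSF+LPS replicate 2, 0 without LPS replicate 2, and 1 without DSF replicate 1 or control replicate 1. The negative ones numbered 1 without LPS replicate 2, control replicate 1 or control replicate 2.

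**Figure D4:**
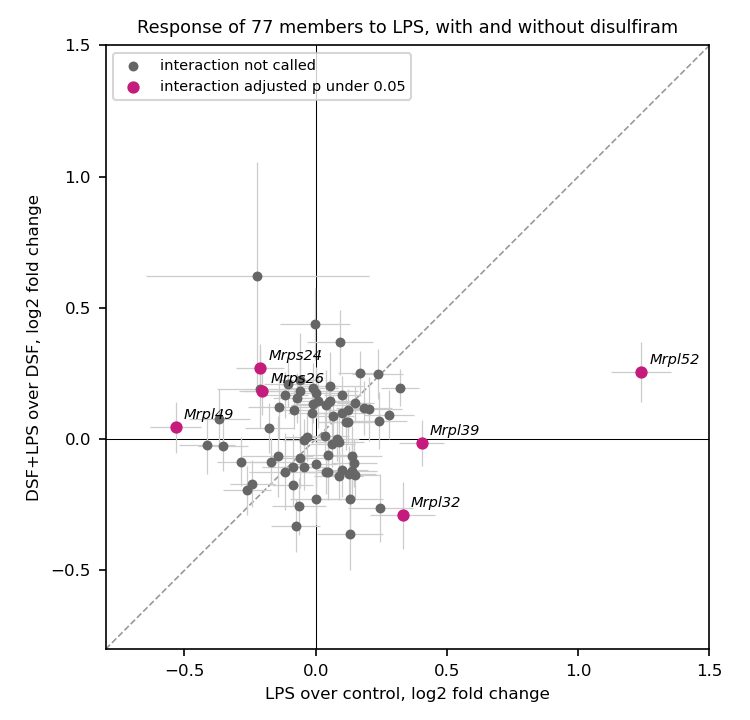
The log2 fold change of 77 members in DSF+LPS over DSF (vertical) and in LPS over control (horizontal), with bars of 1 SE and a dashed line of equal change. Mrpl52 lies far to the right of the line at 1.24 and 0.26, and the 6 coloured members have an interaction with an adjusted p under 0.05.

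Genes for proteins that build, feed and serve the mitochondrial ribosome fell more often than they rose with disulfiram. Only RNA was measured, not protein. Over all tested genes, the shares to set beside these lists were 27.1% lower and 31.0% higher with DSF against control. With DSF+LPS against LPS they were 31.6% lower and 33.7% higher. A mixed list of 18 genes is called translation factors here. It also holds genes for other proteins of translation, among them Gatc, Mtfmt, Lrpprc and Oxa1l. Of the 18, 15 fell with DSF against control and 14 with DSF+LPS against LPS. In either comparison 0 rose by edgeR, at an unadjusted p under 0.05 or by DESeq2. Gatc, a subunit of the enzyme that completes mitochondrial glutaminyl-tRNA, had 18.7 and 17.8 CPM in DSF and 40.6 and 35.8 CPM in control (log2 fold change -1.06, SE 0.11). Taco1, which activates translation of the cytochrome oxidase subunit mRNA, changed by -0.87 (SE 0.13), and Mtrf1, a release factor relative, by -0.92 (SE 0.20). With DSF+LPS against LPS, Mtrf1 changed by -1.38 (SE 0.21) and Mtfmt, which formylates the initiator tRNA, by -1.12 (SE 0.13).

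Among 29 genes for assembly of the ribosome and modification of its RNA, 14 fell and 4 rose with DSF, and 16 fell and 4 rose with DSF+LPS against LPS. Noa1, a GTPase needed for the small subunit, had 38.0 and 36.9 CPM in DSF and 80.9 and 77.4 CPM in control (log2 fold change -1.08, SE 0.08). Rbfa, a small-subunit maturation factor, changed by -1.05 (SE 0.10). Trmt61b, an RNA methyltransferase, rose by 1.12 (SE 0.13). Of 17 mitochondrial tRNA synthetases, 10 fell and 3 rose in each of the 2 comparisons. Aars2, for alanine, changed by -1.01 (SE 0.11) with DSF against control, whereas Lars2, for leucine, rose by 0.92 (SE 0.19).

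Another 5 subunits carry other names. Ptcd3, a small-subunit protein also called MRPS39, had 54.7 and 50.3 CPM in DSF and 109 and 111 CPM in control (log2 fold change -1.07, SE 0.08, adjusted p = 3.50e-08). Gadd45gip1, of the large subunit, also fell (-0.30) and Aurkaip1, of the small one, rose (0.20), but each of these calls was lost without more than 1 single library. With DSF+LPS against LPS, Ptcd3 changed by -1.35 (SE 0.08) and Aurkaip1 by 0.28 (SE 0.07), and the other 3 did not pass.

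For copying and transcribing mitochondrial DNA, 5 of 12 genes fell and 2 rose with DSF against control, and 6 fell and 2 rose with DSF+LPS against LPS. Polrmt, the mitochondrial RNA polymerase, had 30.2 and 26.2 CPM in DSF and 61.2 and 57.3 CPM in control (log2 fold change -1.07, SE 0.11), while Tfb2m, its initiation factor, rose by 0.63 (SE 0.11). Of 9 regulators of mitochondrial gene expression, 5 fell and 3 rose with DSF against control, and 6 fell and 1 rose with DSF+LPS against LPS. Ppargc1b, a coactivator also called PGC-1beta, had 7.38 and 6.15 CPM in DSF, against 20.7 and 20.3 CPM in control (log2 fold change -1.60, SE 0.18). It was also lower with LPS alone, at 8.45 and 5.59 CPM (log2 fold change -1.55, SE 0.18). Pprc1, a related coactivator, changed by -0.55 with DSF (SE 0.12), and Gabpb1, a subunit of the ETS factor GABP, rose by 0.61 (SE 0.09).

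The mRNAs that the mitochondrial ribosome translates were lowest in the group given both agents. With DSF against control, 5 of the 13 fell and 1, mt-Co1, rose, and with DSF+LPS against LPS 12 fell. With LPS against control none passed by edgeR, at an unadjusted p under 0.05 or by DESeq2. The mRNA mt-Nd6, for a subunit of complex I, had 47.0 and 47.2 CPM in DSF+LPS, 155 and 112 CPM in DSF, 104 and 128 CPM in LPS and 119.5 and 127 CPM in control. It was lowest in both DSF+LPS libraries, with a log2 fold change of -1.31 over LPS (SE 0.13, adjusted p = 7.16e-07).

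Genes of 2 related classes were counted in the same way. Of 76 cytosolic ribosomal protein genes, 49 rose and 0 fell with DSF against control by edgeR (median log2 fold change 0.40), while 1 was lower at an unadjusted p under 0.05 and 0 by DESeq2. With DSF+LPS against LPS, 50 rose and 3 fell (median 0.47). Of 79 tested genes for nuclear-encoded subunits of the respiratory chain and ATP synthase, 23 rose and 11 fell with DSF (median 0.08). With DSF+LPS against LPS, 38 rose and 9 fell (median 0.21). For these 79, the share that rose with DSF was 29.1%, near the 31.0% of all tested genes, and 13.9% fell, against 27.1%. With DSF+LPS against LPS, 48.1% rose, against 33.7% of all tested genes, and 11.4% fell, against 31.6%.

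**Figure D5:**
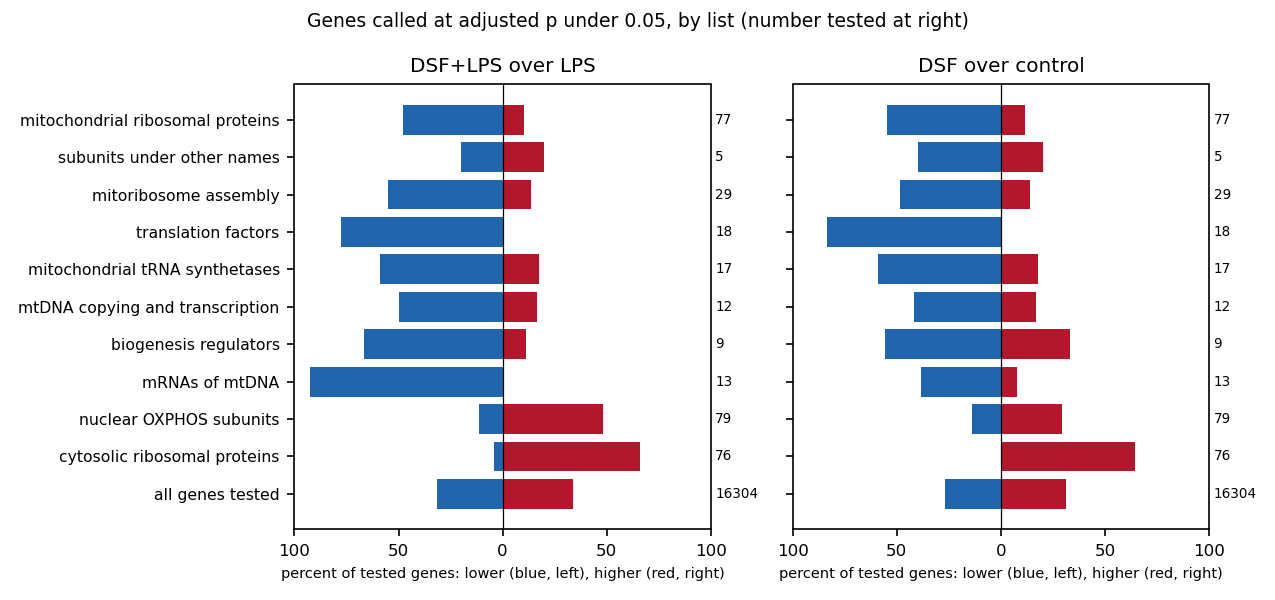
Percent of the tested genes in each list that were lower (blue, left) or higher (red, right) at an adjusted p under 0.05, in DSF+LPS over LPS and in DSF over control, with the number tested at the right. Lower calls dominate for the mitochondrial ribosomal proteins and translation factors and higher calls for the 76 cytosolic ribosomal proteins.

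Many members start beside another gene that is read in the opposite direction. In the GENCODE M21 annotation, 37 members had such a neighbour with a start within 1000 bases, and for 34 of them both genes were tested. Of the 20 such members that fell with DSF against control, 7 had a neighbour that fell, 3 one that rose and 10 one that did not pass, where 27.1% of all tested genes fell and 31.0% rose. The neighbours that fell were Wdfy1 beside Mrpl44, Ncapd2 beside Mrpl51, Ptcd2 beside Mrps27, Hira beside Mrpl40, Gga3 beside Mrps7, Eme2 beside Mrps34 and Klc4 beside Mrpl2. Ncapd2, a condensin subunit, had a log2 fold change of -0.89 and Mrpl51 one of -0.85. The neighbours that rose were Ndufs6 beside Mrpl36, Fau beside Mrpl49 and Twnk beside Mrpl43. Fau, which encodes a fusion of a ubiquitin-like and a cytosolic ribosomal protein, had a log2 fold change of 0.75 and Mrpl49 one of -0.40. Of 3 members with such a neighbour that rose themselves, 2 had a neighbour that rose, and 1, Mrpl57, had one that fell (Ska3). Some of these pairs overlap in the annotation, among them Mrpl44 and Wdfy1, Mrps7 and Gga3, Mrpl36 and Ndufs6, and Mrpl43 and Twnk. Mrpl13 and its neighbour Mtbp, which both rose, overlap too. The counts of such pairs may share reads. Mrpl46 and Mrps11 are each other's neighbour, with starts 412 bases apart on opposite strands, and their annotated genes overlap, so their counts may share reads. They had log2 fold changes of -0.46 (adjusted p = 0.00289) and 0.23 (adjusted p = 0.0535). With DSF+LPS against LPS both members of that pair passed, Mrpl46 at -0.67 and Mrps11 at 0.43.

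Altogether 15 members passed in none of the 5 tests. The share of all tested genes that passed in none was not counted, so this number has no background beside it. These members were Mrpl20, Mrpl21, Mrpl23, Mrpl27, Mrpl28, Mrpl37, Mrpl58, Mrps10, Mrps14, Mrps15, Mrps17, Mrps18b, Mrps18c, Mrps21 and Mrps36. A p that misses the threshold does not show that a gene was equal between groups.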

How the data were processed

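The authors deposited raw read counts per gene, as whole numbers, in 1 table of 8 libraries. Per the submitters' processing notes, the genome build was GRCm39 and DESeq2 was used, with no role given. The sources used here do not give the aligner, counter, annotation or treatment of strand and multiply mapped reads, so counts of overlapping genes and pseudogene copies are uncertain. All 8 columns matched a sample by its title.

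Symbols came from the GENCODE M21 annotation of GRCm38, which named 52081 of 55414 identifiers and left 3333 without a symbol. No gene coordinates are printed except RefSeq's promoter windows on GRCm38.p6. Counts were tested with edgeR 4.0.16 in R 4.3.3 by the quasi-likelihood test. All 8 libraries went into 1 fit with a mean per group and TMM (trimmed mean of M-values) scaling of library sizes. The groups thus shared 1 estimate of spread per gene, though replicates agreed less in some groups. Chi-square of replicate differences over counting noise, per degree of freedom, was 13.4 in DSF+LPS, 7.10 in DSF, 4.28 in LPS and 3.88 in control. The filterByExpr defaults (minimum count 10, minimum total 15) left 16304 genes. P-values were adjusted by Benjamini-Hochberg over all of them and called under 0.05, and "rose" and "fell" are used of such calls. SE is the size of the log2 fold change over the square root of its F statistic. The biological coefficient of variation was 7.85%. The test was checked on simulated data in which few genes changed and all genes shared 1 dispersion. That check does not cover data like these, in which most genes were called with disulfiram.

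The members, gene lists, tests and naming rule were chosen with earlier results of these data known. The rule names up to 8 called members in each direction by size of change at a mean of at least 5 CPM, 10 members taken for their roles, and up to 3 called genes of each of 7 pathway lists. Other genes were chosen after their values were seen. One gene that the rule names is not reported here. Alternatives were library size alone, DESeq2 size factors (RLE) in edgeR, DESeq2 1.42.0, no filter on low counts, only the groups compared, a replicate block, and leaving out each library in 8 fits.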

Additional observations from a re-analysis of the deposited data

Results flagged for a closer look

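For 6 members, the response to disulfiram differed between cells with and without LPS by the interaction term of the edgeR fit. The values below are that difference on the log2 scale, with LPS minus without. Among the members it was -0.99 for Mrpl52, -0.62 for Mrpl32, -0.42 for Mrpl39, 0.58 for Mrpl49, 0.48 for Mrps24 and 0.38 for Mrps26. Over all tested genes, 19.7% were called, 7.58% above 0 and 12.2% below, a larger share than among the 77 members. The assembly genes, translation factors and genes for mitochondrial DNA also had a smaller share, and the regulators and mitochondrial mRNAs a larger one. Of each pathway list, the called genes with the largest size are named, up to 3 at a mean of at least 5 CPM. Of 29 genes for assembly of the ribosome, 2 were called above 0 and 2 below, with Mterf3 at -0.80, Gtpbp10 at -0.80 and Rbfa at 0.60. Of the 18 genes on the mixed list called translation factors only Oxa1l was called (0.48). Of 12 genes for mitochondrial DNA only the helicase Twnk was called (0.41). Of 9 regulators 1 was called above 0, Ppargc1b (0.87), and 2 below, of which Gabpa had -0.50. Of 13 mitochondrial mRNAs 9 were called, all below 0, and mt-Nd6, mt-Nd3 and mt-Nd2 had -1.42, -1.11 and -0.77. The calls of Oxa1l and Mrpl49 were lost without LPS replicate 2. Those of Twnk and Ppargc1b were each lost without any one of 5 libraries, and those of Mrpl32, Mrpl39, Mrps24 and Mrps26 without any one of at least 4.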

How the results depend on the processing

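With 2 libraries a group, the counts of calls depended on single libraries and on scaling more with LPS than with disulfiram. Leaving out 1 library gave 32 to 46 members lower and 3 to 9 higher for DSF against control, 32 to 39 lower and 6 to 10 higher for DSF+LPS against LPS, 1 to 9 lower and 3 to 5 higher for LPS against control, 0 to 1 lower and 0 to 3 higher for DSF+LPS against DSF, and 1 to 4 negative and 0 to 9 positive interactions. The mean shares of library counts then ran from 0.341% to 0.350% in DSF+LPS, 0.357% to 0.357% in DSF, 0.408% to 0.410% in LPS and 0.438% to 0.454% in control. Library size alone as the scaling changed the log2 fold changes of all genes by a median of -0.16 for LPS against control, -0.10 for DSF against control and -0.11 for DSF+LPS against DSF. It gave 2 members higher and 15 lower with LPS against control, 7 lower for DSF+LPS against DSF and 5 positive interactions. Of all tested genes, 23.1% were then lower with LPS against control and 13.4% for DSF+LPS against DSF. For LPS against control DESeq2 gave 4 lower, and a fit of only the groups compared gave 7 higher. For DSF+LPS against DSF, RLE size factors gave 2 higher and 0 lower, DESeq2 1 higher and 0 lower, and both the fit of only those groups and the replicate block gave 0 lower. The replicate block gave 41 lower and 9 higher for DSF against control and 37 lower and 8 higher for DSF+LPS against LPS. Same-numbered libraries deviated together with correlations of -0.18 to 0.23 over 10466 genes, so the numbers were not taken to pair them. Against tested nuclear protein-coding genes only, the shares were 0.416% in DSF+LPS, 0.430% in DSF, 0.478% in LPS and 0.523% in control. The interaction uses all 4 groups, so it has no fit of fewer groups. The cause of these changes was not tested.

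Signs were checked only for the genes that the rule names in each comparison. Among those, sign changes were found only for members that had not passed. With library size alone, LPS against control gave -0.043 for Mrpl58, -0.034 for Mrps18a, -0.028 for Mrps18c and -0.031 for Mrps30, DSF against control gave -0.037 for Mrps18b, DSF+LPS against DSF gave -0.039 for Mrpl58, and the interactions of Mrpl58 and Mrps18a were 0.0038 and 0.039. The interaction of Mrps18a was 0.0066 with RLE size factors, 0.0066 with DESeq2 and 0.011 with no filter. Leaving out 1 library gave ranges across 0 for Mrps12 (-0.088 to 0.083) and Mrps36 (-0.52 to 0.022) with LPS against control, Mrps18b (-0.073 to 0.18) with DSF against control, Mrps12 (-0.17 to 0.0058) with DSF+LPS against LPS, and Mrps30 (-0.28 to 0.025) with DSF+LPS against DSF. The same held for the interactions of Mrpl18 (-0.018 to 0.20), Mrpl45 (-0.13 to 0.060), Mrpl58 (-0.17 to 0.063), Mrps18a (-0.091 to 0.075) and Mrps18b (-0.099 to 0.16).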
